A study of Rattus norvegicus with 4 samples.

Results

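Transcripts of 9 chemokines and of the adhesion gene Icam1 were followed across the cell types of the rat pituitary. The 10 genes, Cxcl1, Cxcl2, Cxcl9, Cxcl10, Cxcl12, Cx3cl1, Ccl2, Ccl3, Ccl19 and Icam1, were taken by symbol from the 32883 genes of the deposited count matrix, and each symbol named 1 gene. The cells came from female Sprague Dawley rats aged 75 days at random stages of the estrus cycle. Dispersed cells of pooled glands were sequenced in 4 droplet libraries with a 3' kit that counts each captured transcript once by a unique molecular identifier (UMI). From 30 dissected glands, the pooled anterior lobes gave 1 library and the pooled posterior lobes gave 1 library. Another 30 glands were dispersed whole with trypsin and EDTA, as the lobes were, and the 1 suspension was loaded on 2 lanes. By its title, the study concerns glial and stem cell roles of folliculostellate cells, the agranular, S100b-positive support cells of the anterior lobe.

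Chemokines are small secreted proteins that direct the movement of leukocytes through G protein-coupled receptors. Cxcl1 and Cxcl2 bind Cxcr2 and attract neutrophils, Cxcl9 and Cxcl10 bind Cxcr3 on activated T cells and are classical interferon targets, and Cxcl12 binds Cxcr4 and guides progenitor and immune cells. Cx3cl1 (fractalkine) is made as a membrane-anchored molecule whose receptor, Cx3cr1, is carried by microglia and macrophages. Ccl2 recruits monocytes through Ccr2, Ccl3 attracts monocytes and T cells, Ccl19 guides Ccr7-bearing lymphocytes and dendritic cells, and Icam1 is the ligand on which leukocytes with beta-2 integrins adhere.

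After filtering, 19777 cells remained, between 3832 and 5530 per library, with library medians of 9572.5 to 10604.5 UMIs per cell. Any pair of libraries shared 3 to 10 cell barcodes. Clusters were named from fixed markers and keep the ending "-like", and the 10 genes were left out of the clustering. Of these cells, 2856 were folliculostellate-like (847 anterior, 324 posterior, 925 and 760 in the whole-gland lanes), 852 myeloid-like, 573 endothelial-like, 330 fibroblast-like and 1223 pituicyte-like. Pituicytes are the astroglia of the posterior lobe, and 1119 of the pituicyte-like cells were in the posterior library and 0 in the anterior one. Hormone cells were the 12933 cells of 5 classes with markers of prolactin, growth hormone, corticotropin, gonadotropin or thyrotropin cells. In folliculostellate-like cells at least 6 of 7 class markers were detected in 5% of cells in each library, and 0 of 12 myeloid markers reached that share. Fibroblast-like cells also carried pericyte markers (6 of 6 in at least 5% of cells), and their Col1a2 was at 0.

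Levels are CPM, the UMIs of a gene divided by all UMIs of the cells of a class in 1 library and scaled to counts per 1e+06. For scale, the summed level of 5 lactotroph markers, led by Prl, was 6625 to 38788 CPM in folliculostellate-like cells of the 4 libraries. A gene was called when it changed by at least 1 on the log2 scale in either direction, with an adjusted p (Benjamini-Hochberg) below 0.05, in the edgeR quasi-likelihood test on UMIs summed per class and preparation (2 preparations). With preparation as a term of the fit, such p-values rest on how far differences between classes varied over these 2 pools of animals. They do not measure variation between animals. At least 7 of the 10 members were called higher than in hormone cells in each of the 5 classes tested. All 10 were higher in folliculostellate-like cells, where 22.8% of 14699 genes tested were called higher and 34.4% in either direction. The members were chosen with earlier results of these data known, so the background shares give a scale and no test of the set. All 10 were higher in endothelial-like cells (background 28.6% higher, 47.5% in either direction) and in fibroblast-like cells (background 21.7% and 33.5%). In myeloid-like cells 8 of 10 were higher, all but Cxcl12 and Ccl19 (background 24% and 44.1%), and in pituicyte-like cells 7 of 10, all but Cxcl1, Cxcl9 and Cxcl12 (background 20.3% and 34%). Without the posterior library, which holds 1119 of the 1223 pituicyte-like cells, 2 members were called, and Cxcl2 and Ccl3, at 0 UMIs in the other pituicyte-like cells, turned to -2.99 and -3.21. In sums of this kind, fewer cells with the transcript and less transcript per cell cannot be told apart, so shares of cells are given beside the levels. Several hormone cell types had 0 UMIs of Cxcl2, Cxcl9, Cxcl12, Cx3cl1, Ccl3, Ccl19 or Icam1 in a preparation, and for these genes fold changes are given against all hormone cells pooled, a fit added after the zeros were seen.

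**Figure D1:**
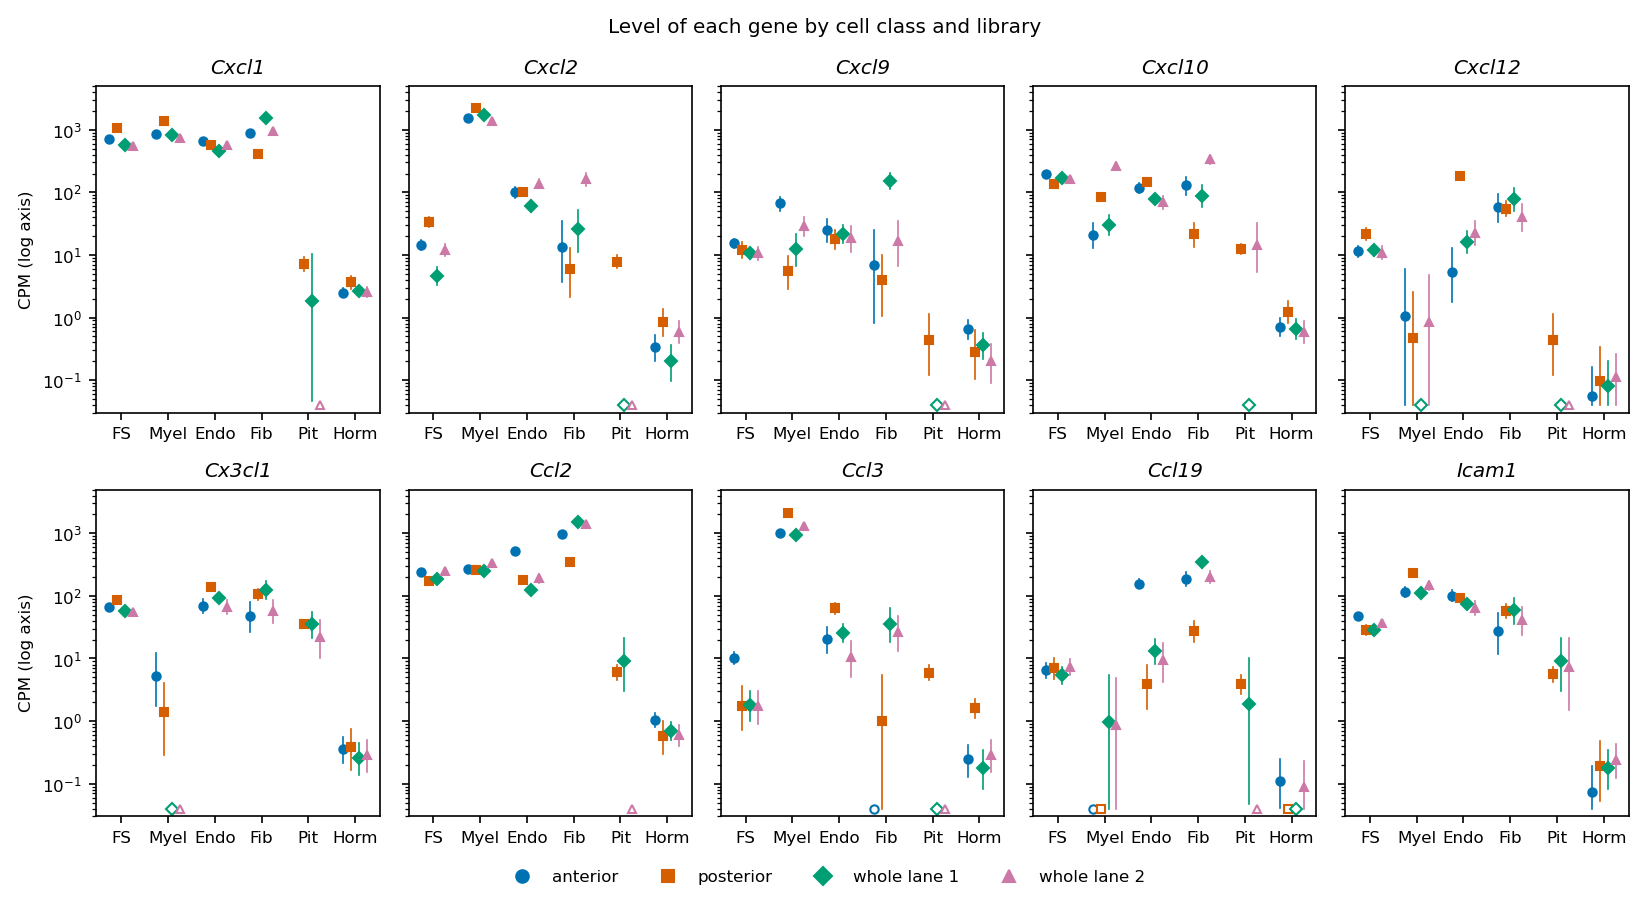
Level of each gene in CPM (log axis) by class and library: FS, folliculostellate-like; Myel, myeloid-like; Endo, endothelial-like; Fib, fibroblast-like; Pit, pituicyte-like; Horm, hormone cells pooled. Points are libraries, bars exact Poisson intervals for counting error, cut at the lower edge, and open symbols at the lower edge are libraries with 0 UMIs; hormone cells lie at 2.51 to 3.67 CPM for Cxcl1, and Cxcl2 and Ccl3 are highest in myeloid-like cells.

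Cxcl1 was abundant in folliculostellate-like cells and 3 other non-endocrine classes and nearly absent from endocrine cells and pituicyte-like cells. It stood at 711, 1071, 569 and 543 CPM in folliculostellate-like cells of the anterior, posterior, first and second whole-gland libraries, against 2.51, 3.67, 2.70 and 2.59 CPM in hormone cells. Myeloid-like cells had 849, 1402, 838 and 736 CPM, endothelial-like cells 662, 575, 453 and 572 CPM, and fibroblast-like cells 873, 404, 1522 and 969 CPM. Myeloid-like values lay above all endothelial-like values, each other pair of these 4 classes overlapped, and none overlapped hormone cells. The log2 fold change of Cxcl1 against hormone cells was 7.09 ± 0.23 (SE; edgeR quasi-likelihood adjusted p = 2.57e-18) in folliculostellate-like cells and 8.10 ± 0.23 in myeloid-like cells (adjusted p = 1.82e-19). Folliculostellate-like cells, 14.4% of all cells, held 63.3% of all Cxcl1 UMIs. Thinned shares count only cells with at least 2000 UMIs, each thinned to 2000 UMIs, while unthinned shares count all cells of a class. After thinning, 27.7% of folliculostellate-like cells had a Cxcl1 UMI (35.1% unthinned, median depth 6226 UMIs). The share in hormone cells was 0.544% (2.20% unthinned, median depth 11654 UMIs). The thinned share was 22.7% in myeloid-like, 28.4% in endothelial-like and 24.4% in fibroblast-like cells. Among hormone cells Cxcl1 was highest in corticotroph-like cells, with 141 UMIs in 1113 cells.

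Cxcl2 was a myeloid transcript in these cells. It reached 1532, 2200, 1701 and 1405 CPM in the myeloid-like cells of the 4 libraries, in the same order, against 0.337, 0.858, 0.201 and 0.597 CPM in hormone cells. Folliculostellate-like cells had 14.7, 33.7, 4.68 and 11.9 CPM and endothelial-like cells 101, 103, 61.0 and 138 CPM. The myeloid-like values lie above those of every other class in each library. Of all Cxcl2 UMIs, 89.3% were in myeloid-like cells, which made up 4.31% of cells. After thinning, a Cxcl2 UMI was found in 48.3% of myeloid-like cells and in 1.28% of folliculostellate-like cells, against 0.0552% of hormone cells. Against pooled hormone cells the log2 fold change of Cxcl2 was 11.90 ± 0.76 in myeloid-like cells (edgeR quasi-likelihood adjusted p = 4.37e-10) and 4.23 ± 0.66 in folliculostellate-like cells (adjusted p = 2.99e-05). Cxcl1 and Cxcl2 are related neighbouring genes, and how reads fitting both were assigned is not given in the sources used here.

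The promoters of Cxcl1, Cxcl2 and Cxcl10 are printed because these genes share a chromosome and a motif, while most Cxcl1 and Cxcl10 UMIs lay in folliculostellate-like cells and most Cxcl2 UMIs in myeloid-like cells. Each line holds the 250 bases before the annotated start in RefSeq's GRCr8 assembly, at chr14:17479322-17479571 (minus strand) for Cxcl1, chr14:17467256-17467505 (minus strand) for Cxcl2 and chr14:15988816-15989065 (plus strand) for Cxcl10. Capitals mark matches to the NF-kB consensus (GGGRNWYYCC, where R is A or G, W is A or T, Y is C or T and N is any base). They also mark matches to the interferon-stimulated response element (ISRE, a pair of GAAA blocks 2 bases apart). Both were searched on both strands.
Cxcl1: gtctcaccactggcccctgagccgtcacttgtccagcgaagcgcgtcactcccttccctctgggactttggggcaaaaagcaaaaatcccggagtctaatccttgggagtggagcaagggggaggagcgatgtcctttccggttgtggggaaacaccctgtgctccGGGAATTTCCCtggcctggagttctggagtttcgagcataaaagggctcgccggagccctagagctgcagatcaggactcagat
Cxcl2: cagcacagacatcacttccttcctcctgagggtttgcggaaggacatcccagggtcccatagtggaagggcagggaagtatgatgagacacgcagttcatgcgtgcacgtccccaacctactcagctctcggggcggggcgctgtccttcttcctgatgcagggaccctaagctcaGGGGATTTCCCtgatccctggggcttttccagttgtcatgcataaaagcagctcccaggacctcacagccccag
Cxcl10: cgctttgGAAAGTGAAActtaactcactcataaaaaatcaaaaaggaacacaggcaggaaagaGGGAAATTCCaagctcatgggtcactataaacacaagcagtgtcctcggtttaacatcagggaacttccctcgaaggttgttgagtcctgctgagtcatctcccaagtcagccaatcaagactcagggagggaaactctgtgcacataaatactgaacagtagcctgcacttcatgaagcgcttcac
The Cxcl1 promoter held an NF-kB match from 84 to 75 bases before the start, with an overlapping match on the other strand from 83 to 74. Cxcl2 held 3 overlapping matches between 74 and 64 bases before the start. Cxcl10 held 1 NF-kB match, from 187 to 178 bases, 1 ISRE match, from 243 to 234 bases, and 1 AP-1 match (TGANTCA), from 96 to 90 bases, which is not capitalized. Of 33469 RefSeq promoters of the same length, 3.54% held the NF-kB consensus, 3.41% the ISRE and 6.34% the AP-1 motif. Among the 8 members with a promoter entry, Ccl19 had an ISRE match from 51 to 42 bases. No exact match to any of the 3 motifs was found for Cxcl9, Cxcl12, Cx3cl1 and Icam1 in this window. Near matches were not counted, and the Icam1 window holds tggaaattcc, which departs from the NF-kB consensus only at its first base. Ccl2 and Ccl3 have no entry.

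Cxcl10 and Cxcl9, the Cxcr3 ligands, were higher in folliculostellate-like, endothelial-like, fibroblast-like and myeloid-like cells than in hormone cells. Cxcl10 stood at 198, 138, 171 and 164 CPM in folliculostellate-like cells, against 0.712, 1.24, 0.664 and 0.597 CPM in hormone cells. Endothelial-like cells had 119, 148, 77.9 and 69.5 CPM of Cxcl10. Of the posterior endothelial-like UMIs, 117 of 269 were in 1 cell, and the level there was 83.9 CPM without it. Without that cell every endothelial-like value lay below the folliculostellate-like ones. Values of the other classes scattered widely between libraries, from 21.1 to 269 CPM in myeloid-like and from 21.7 to 335 CPM in fibroblast-like cells. With all cells kept, the 4 classes overlap. Folliculostellate-like cells held 73.2% of all Cxcl10 UMIs, and the log2 fold change against hormone cells was 7.75 ± 0.36 (edgeR quasi-likelihood adjusted p = 4.22e-15). Cxcl9 stood at 15.4, 12.2, 10.6 and 10.8 CPM in folliculostellate-like cells, against 0.655, 0.286, 0.362 and 0.199 CPM in hormone cells. Its log2 fold change against pooled hormone cells was 4.23 ± 0.54 (adjusted p = 2.78e-06). Cxcl9 in myeloid-like cells, 66.6, 5.61, 12.7 and 29.4 CPM, rested on few cells: 47 of 63 anterior UMIs were in 1 cell. Single cells also held 18 of 23 anterior and 16 of 18 second-lane Cxcl9 UMIs of endothelial-like cells and 35 of 47 first-lane UMIs of fibroblast-like cells. The posterior folliculostellate-like level of Cxcl9 was 6.86 CPM without 1 cell. The anterior myeloid-like cell held 274 UMIs of myeloid markers and 0 of folliculostellate, endothelial or fibroblast markers. The anterior endothelial-like cell held 203 UMIs of fibroblast, 95 of pericyte and 86 of endothelial markers, against class medians of 0, 0 and 78. The anterior myeloid-like cell richest in Cxcl10, with 12 of 20 UMIs, held 117 UMIs of myeloid and 107 of folliculostellate markers. One myeloid-like cell of the second lane likewise held 195 of 311 Cxcl10 UMIs, and the level there was 101 CPM without it.

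Cxcl12 and Cx3cl1 were higher in folliculostellate-like, endothelial-like and fibroblast-like cells than in hormone cells, and near 0 in myeloid-like cells. Cxcl12 stood at 11.6, 21.8, 11.9 and 10.9 CPM in folliculostellate-like cells and at 58.0, 55.2, 78.9 and 41.0 CPM in fibroblast-like cells, against 0.0562, 0.0953, 0.0805 and 0.111 CPM in hormone cells. In endothelial-like cells Cxcl12 stood at 180 CPM in the posterior library and at 5.44, 16.3 and 22.8 CPM in the other three. Of the 2 endothelial-like clusters 1 held 220 CPM, against 5.74 CPM in the other. That cluster had 200 of its 239 cells in the posterior library and 0 in the anterior one, was led by Aqp1, Flt1 and Rgs5, and carried a summed level of pericyte markers of 3505 CPM, against 574 CPM in the other cluster. The part of pericyte transcripts in this Cxcl12 level was not tested. In myeloid-like cells 3 Cxcl12 UMIs were counted in 852 cells. Against pooled hormone cells, the log2 fold change of Cxcl12 was 6.40 ± 0.60 in folliculostellate-like cells (edgeR quasi-likelihood adjusted p = 7.23e-08) and 8.55 ± 0.68 in fibroblast-like cells (adjusted p = 1.40e-08).

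Cx3cl1 stood at 66.8, 86.6, 56.6 and 56.0 CPM in folliculostellate-like cells, at 69.6, 140, 93.7 and 66.4 CPM in endothelial-like cells and at 47.7, 106, 125 and 57.8 CPM in fibroblast-like cells, against 0.356, 0.381, 0.262 and 0.287 CPM in hormone cells. These 3 classes overlap in Cx3cl1. Pituicyte-like cells had 35.8, 35.0 and 22.0 CPM in the 3 libraries that held them, below folliculostellate-like cells of the same library in each. Its log2 fold change against pooled hormone cells was 6.95 ± 0.24 in folliculostellate-like cells (edgeR quasi-likelihood adjusted p = 3.01e-13) and 5.95 ± 0.26 in pituicyte-like cells (adjusted p = 4.98e-12). After thinning, a Cx3cl1 UMI was found in 11.4% of folliculostellate-like, 19.7% of endothelial-like and 5.71% of pituicyte-like cells, against 0.0394% of hormone cells. Melanotroph-like cells, which are not among the hormone cells of the test, had 6.71 CPM of Cx3cl1 over all libraries. Its receptor gene Cx3cr1 had 607 and 453 CPM in myeloid-like cells of the dissected and whole preparations, while the ligand itself had 8 UMIs there in 852 cells, 5 anterior and 3 posterior, and 0 in the whole preparation. Its call as higher in myeloid-like than in hormone cells rests on the dissected preparation and was lost without the anterior library.

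Ccl2 was higher than in hormone cells in all 5 classes. It stood at 238, 171, 188 and 247 CPM in folliculostellate-like cells, 265, 256, 247 and 333 CPM in myeloid-like cells and 965, 350, 1489 and 1400 CPM in fibroblast-like cells, against 1.05, 0.572, 0.705 and 0.597 CPM in hormone cells. Fibroblast-like cells were above the folliculostellate-like cells of the same library in all 4 libraries. The log2 fold change of Ccl2 against hormone cells was 7.89 ± 0.31 in folliculostellate-like cells (edgeR quasi-likelihood adjusted p = 1.22e-16), 8.51 ± 0.31 in myeloid-like cells and 9.96 ± 0.30 in fibroblast-like cells. A Ccl2 UMI was found after thinning in 13.8% of folliculostellate-like and 7.99% of myeloid-like cells, against 0.126% of hormone cells. The Ccl2 level of endothelial-like cells, 529 CPM in the anterior library, was set by 1 cell with 324 of 486 UMIs and was 181 CPM without it. That cell held 203 UMIs of fibroblast and 95 of pericyte markers, against class medians of 0. In the posterior library 1 cell held 173 of 327 Ccl2 UMIs, and the level was 179 CPM with it and 85.3 CPM without. That posterior cell held 46 UMIs of fibroblast and 134 of pericyte markers.

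Ccl3, like Cxcl2, lay almost wholly in myeloid-like cells. It stood at 992, 2098, 951 and 1323 CPM in myeloid-like cells, against 0.243, 1.62, 0.181 and 0.287 CPM in hormone cells. Folliculostellate-like cells had 10.2 CPM in the anterior library and 1.77, 1.80 and 1.75 CPM in the other three, against 1.62 CPM in posterior hormone cells. Myeloid-like cells held 93.0% of all Ccl3 UMIs, and 32.9% of them had a UMI after thinning, against 0.0946% of hormone cells. The log2 fold change of Ccl3 against pooled hormone cells was 12.16 ± 0.72 in myeloid-like cells (edgeR quasi-likelihood adjusted p = 1.74e-10).

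Ccl19 was highest in fibroblast-like cells, at 188, 27.6, 342 and 202 CPM, against 0.112, 0, 0 and 0.0884 CPM in hormone cells. Folliculostellate-like cells had 6.51, 7.09, 5.41 and 7.42 CPM, a low level that was similar between libraries and above hormone cells in each. The richest 1% of them held 43.6%, 39.3%, 48.9% and 51.0% of these UMIs. Medians for genes within 2-fold of the same level were 25.8%, 26.5%, 30.6% and 26.2%. Per 1000 UMIs, those cells carried more fibroblast-marker UMIs than the others in the anterior library and both lanes. The posterior library had the other order. The log2 fold change of Ccl19 against pooled hormone cells was 10.35 ± 0.81 in fibroblast-like cells (edgeR quasi-likelihood adjusted p = 2.09e-08) and 5.77 ± 0.90 in folliculostellate-like cells (adjusted p = 3.65e-05). The fibroblast-like class could be split by its markers into 104 cells with more pericyte-marker UMIs and 226 cells with more fibroblast-marker UMIs, of which 2 and 5 cells lay within 2 UMIs of the divide. Ccl19 stood at 318 CPM in the first and 81.1 CPM in the second, and was higher in the first in each of the 4 libraries. Cx3cl1 had the opposite order, with 20.04 CPM in the cells with more pericyte-marker UMIs and 111 CPM in the cells with more fibroblast-marker UMIs. Cxcl1 stood at 757 and 755 CPM over all libraries, but within each library it was lower in the cells with more pericyte-marker UMIs, with 822, 267, 1447 and 411 CPM, against 964, 417, 1552 and 1118 CPM in the cells with more fibroblast-marker UMIs. This split was made after the data were seen and was not tested.

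Icam1 was detected in each non-endocrine class and was highest in myeloid-like cells. It stood at 47.7, 28.6, 28.3 and 36.8 CPM in folliculostellate-like cells and at 116, 236, 110 and 148 CPM in myeloid-like cells, against 0.0749, 0.191, 0.181 and 0.243 CPM in hormone cells. Endothelial-like cells, with 101, 92.2, 74.8 and 64.3 CPM of Icam1, lay between those 2 classes in each library. The log2 fold change of Icam1 against pooled hormone cells was 7.19 ± 0.29 in folliculostellate-like cells (edgeR quasi-likelihood adjusted p = 3.69e-12), 9.58 ± 0.29 in myeloid-like cells and 8.18 ± 0.29 in endothelial-like cells. A thinned share of 7.20% of folliculostellate-like cells and 22.5% of myeloid-like cells had an Icam1 UMI, against 0.0236% of hormone cells.

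Folliculostellate-like cells were then set against the pituicyte-like class, the glia of the posterior lobe, and against myeloid-like cells. Of the 1223 pituicyte-like cells, 482 formed a shallow cluster with a median of 1934 UMIs. Median mitochondrial shares were 14.6% there and 14.4% in the other pituicyte-like cluster, against 11.1% in both folliculostellate-like clusters. The part of cell quality in the differences was not tested. Against pituicyte-like cells, 6 of the 10 members were called higher in folliculostellate-like cells and 0 lower, where 16.5% of 14699 genes were called higher, 12.3% lower and 28.8% in either direction. In the dissected sums these classes came from different libraries, anterior and posterior, so class and library cannot be told apart there. Only the 104 pituicyte-like cells of the whole preparation shared libraries with the folliculostellate-like cells compared. The log2 fold change was 6.71 ± 0.44 for Cxcl1 (edgeR quasi-likelihood adjusted p = 8.06e-12), 5.29 ± 0.47 for Ccl2, 3.94 ± 0.45 for Cxcl10 and 2.93 ± 0.25 for Icam1 (adjusted p = 1.92e-09). Cxcl1 had 7.26, 1.84 and 0 CPM in the pituicyte-like cells of the posterior library and the 2 lanes, and Ccl2 had 6.05, 9.22 and 0 CPM. Cxcl9 and Cxcl12 were also called, but the 104 pituicyte-like cells of the whole preparation held 0 UMIs of Cxcl2, Cxcl9, Cxcl12 and Ccl3, so no size is given for these genes. Cx3cl1 missed the size limit with 0.99 ± 0.14 (adjusted p = 3.83e-06), and Cxcl2, Ccl3 and Ccl19 (0.91 ± 0.78) did not pass the test. With cells carrying markers of another class left out, as described further on, Ccl3 passed as lower (edgeR adjusted p = 0.000944) and Cxcl2 as higher (adjusted p = 0.0166) in folliculostellate-like than in pituicyte-like cells. Immediate early genes moved with this comparison: all 16 of a list of 16 were higher in folliculostellate-like cells, with a median log2 fold change of 4.81, against 0.03 over all genes. Their part in the chemokine difference was not tested.

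Against myeloid-like cells, 2 members were higher in folliculostellate-like cells and 5 were lower, where 22.9% of genes were called higher, 17.6% lower and 40.5% in either direction. Cx3cl1 (5.04 ± 0.30, edgeR quasi-likelihood adjusted p = 1.54e-12) and Cxcl12 (4.17 ± 0.99) were higher in folliculostellate-like cells. Ccl3 (-8.49 ± 0.53), Cxcl2 (-7.67 ± 0.54), Icam1 (-2.39 ± 0.15, adjusted p = 7.31e-12), Cxcl9 (-1.19 ± 0.47, adjusted p = 0.0355) and Cxcl1 (-1.00 ± 0.29, adjusted p = 0.00549) were lower. The Cxcl1 and Cxcl9 calls lay at the limit and were lost under several other settings, such as DESeq2, where Cxcl1 gave -1.06 with an adjusted p of 0.0937. Cxcl10 (0.45 ± 0.33), Ccl2 (-0.62 ± 0.32) and Ccl19 (3.68 ± 1.57) did not pass the test. Without the second whole-gland lane, which holds the myeloid-like cell with 195 Cxcl10 UMIs, Cxcl10 was at 1.54 and passed.

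**Figure D2:**
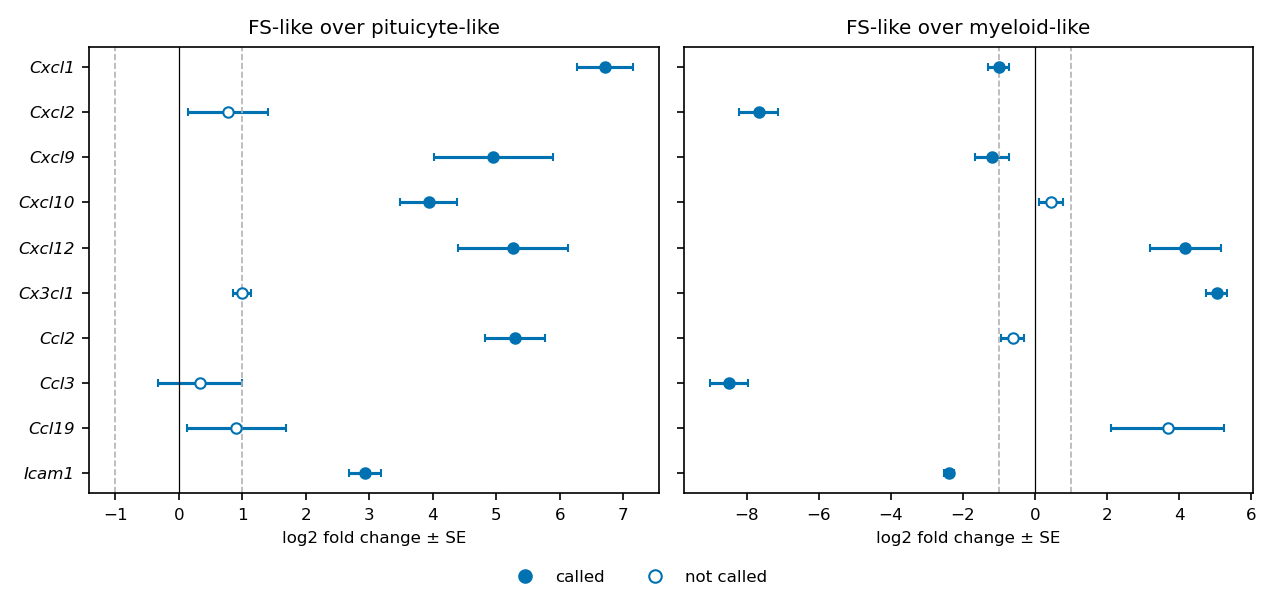
Log2 fold change of each gene in folliculostellate-like (FS-like) cells over pituicyte-like cells (left) and over myeloid-like cells (right), with the SE as bars; filled points were called and dashed lines mark the size limit. Cxcl1 is at 6.71 over pituicyte-like cells and at -1.00 over myeloid-like cells, and Cxcl2 and Ccl3 are lowest on the right at -7.67 and -8.49.

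Within folliculostellate-like cells the transcripts were unevenly shared out among cells. The 1% of anterior folliculostellate-like cells richest in a gene, 9 of 847, held 14.6% of Cxcl1, 23.1% of Ccl2, 44.9% of Cxcl10, 62.3% of Cxcl9 and 67.7% of Cxcl2 UMIs. For genes within 2-fold of the same level in those cells the median share was 9.45% for Cxcl1, 9.93% for Ccl2, 10.1% for Cxcl10, 18.6% for Cxcl9 and 18.9% for Cxcl2. The 5 genes stood above that median in each of the 4 libraries. Cxcl2, Cxcl9, Cxcl10 and Ccl2 also exceeded the 95th percentile of those genes in each library. Cxcl1 was below that percentile in 3 of 4 libraries, with 14.6%, 27.4% and 18.2%, against 19.9%, 33.2% and 20.9% in the anterior, posterior and first-lane libraries. Cxcl12, Cx3cl1 and Icam1 lay closer to their medians in the anterior library, with 21.4%, 13.6% and 16.6%, against medians of 20.4%, 12.1% and 13.2%. In the posterior library Cx3cl1 was at 21.9%, against 14.7%. Unthinned, 15.7% of folliculostellate-like cells had a Cxcl10 UMI. The 9 anterior cells richest in Cxcl10 carried 4.22 UMIs of folliculostellate markers and 0.0203 of myeloid markers per 1000 UMIs, against 3.62 and 0.0986 in the other folliculostellate-like cells. This order did not hold throughout: myeloid markers were higher in the cells richest in Cxcl10 in the first lane (0.0519 and 0.0451 in the others) and the second (0.304 and 0.0732). Folliculostellate markers were lower in them in the posterior library (1.78 and 3.31) and the second lane (2.31 and 3.45). Cells richest in Cxcl1 carried fewer myeloid-marker UMIs than the others in each library (0.00889 and 0.100 per 1000 UMIs in the anterior one). Cells richest in Cxcl2 carried 2.20 UMIs of folliculostellate markers and 0.734 of myeloid markers per 1000 UMIs, against 3.69 and 0.0704 in the other anterior cells; in the posterior library the myeloid values were 0.0394 and 0.0411.

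**Figure D3:**
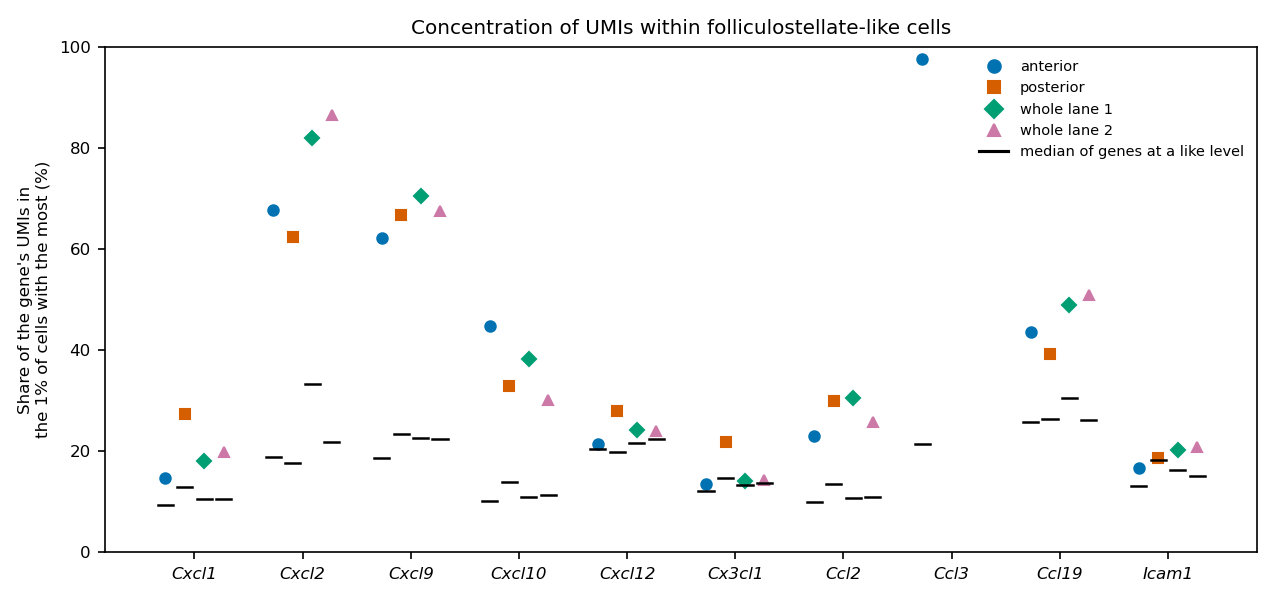
Share of the UMIs of each gene, in percent, found in the 1% of folliculostellate-like cells with the most of it, by library (points), for genes with at least 20 UMIs in the library; black lines are the median share over genes within 2-fold of the same level. Cxcl2, Cxcl9 and Cxcl10 lie far above their lines (67.7%, 62.3% and 44.9% in the anterior library), and Cxcl12 and Cx3cl1 near them; Ccl3 is shown for the anterior library, the only one with enough UMIs.

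The same cells tended to carry several of these transcripts. Among 2665 thinned folliculostellate-like cells, a Cxcl10 UMI was found in 22.9% of those with Cxcl1 and in 5.24% of those without. Ccl2 was found in 24.1% of cells with Cxcl1 and 9.81% of cells without, and Icam1 in 11.9% and 5.40%. The shares in cells with Cxcl1 were above those without in each of the 4 libraries for these 3 genes. Cx3cl1 (12.9% and 10.8%) and Cxcl12 (3.66% and 3.11%) differed less over all libraries, and in the first lane the order was the other way round for both. In myeloid-like cells Cxcl2 was found in 85.9% of cells with Cxcl1 and 37.2% of cells without. Ccl2 was found in 19.03% of myeloid-like cells with Ccl3 and in 2.56% of those without. The myeloid-like clusters differ in the levels of both genes, as described further on, and this pair was not split by cluster. These cells share libraries, and the shares are descriptions with no test over cells.
Within the larger folliculostellate-like cluster alone, Cxcl10 was found in 24.3% of cells with Cxcl1 and 6.07% of cells without, with the same order in each library. Within the smaller one the pooled shares were 14.3% and 3.13%, with 40.7% and 0% in the posterior library, 6.06% and 4.24% in the anterior one, 12.5% and 3.01% in the second lane and the other order, 0% and 3.49%, in the first. Within the myeloid-like cluster led by class II genes, Cxcl2 was found in 83.8% of cells with Cxcl1 and 40.9% of cells without.

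By Pearson correlation over thinned, log-scaled counts, the genes most like Cxcl1 across folliculostellate-like cells of both preparations (809 dissected and 1568 whole, 7321 genes) were Irf1 (r = 0.35), an interferon regulatory factor, Nfkbia (0.34), the inhibitor of NF-kB, Gadd45g (0.31), Cxcl10 (0.30), Cebpd (0.29), Socs3 (0.27), the feedback inhibitor of cytokine signalling, Junb (0.27) and Ier3 (0.27). Ccl2 ranked 14, Icam1 42, Cxcl12 751 and Cx3cl1 853 of 7321. Within a library, genes share cells and depth, and these values describe sparse counts.

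**Figure D4:**
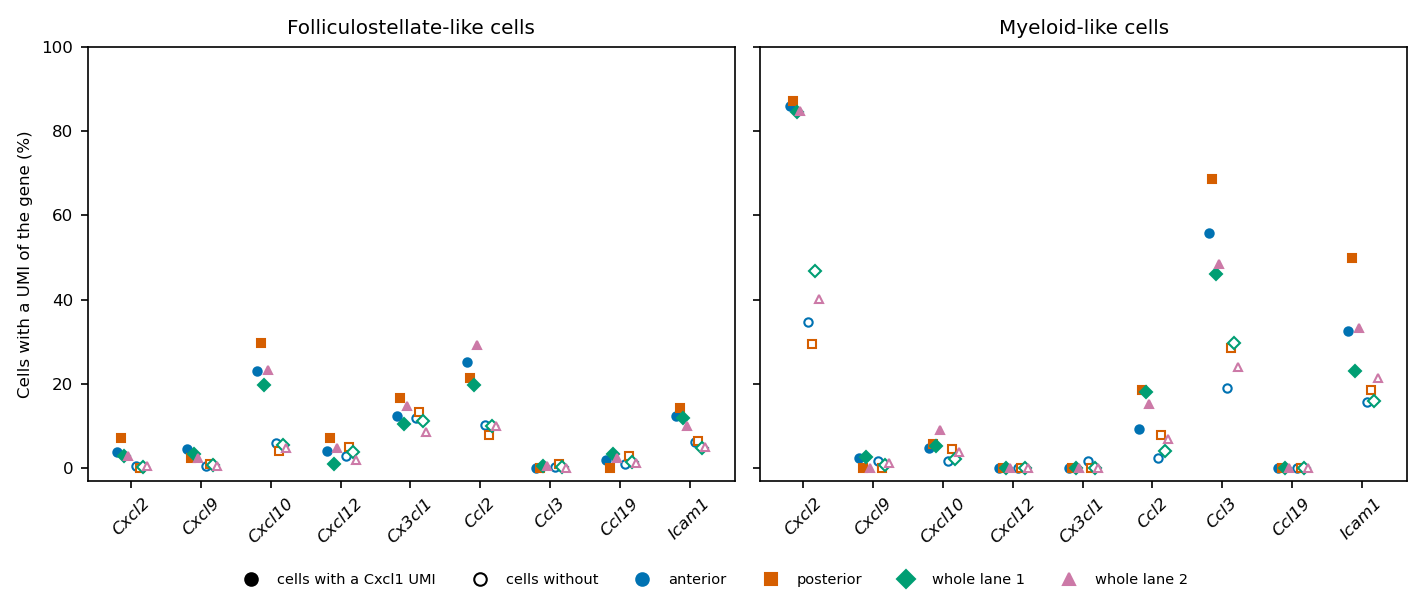
Share of cells, in percent, with a UMI of each gene among cells with a Cxcl1 UMI (filled) and cells without (open), by library (colors and shapes). Folliculostellate-like cells are on the left and myeloid-like cells on the right. Only cells with at least 2000 UMIs entered, each thinned to 2000 UMIs. In folliculostellate-like cells Cxcl10, Ccl2 and Icam1 separate (22.9% and 5.24% for Cxcl10 over all libraries), while in myeloid-like cells Cxcl2, Ccl3 and Icam1 do (85.9% and 37.2% for Cxcl2).

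Levels of several members differed between the 2 folliculostellate-like clusters. One cluster of 2182 cells was led by Gpha2, Guca2b and Aldh3a1, and the other, of 674 cells and with deeper cells (median 10938 UMIs, against 5932), by Krt17, Tent5b and Thbs1. Cxcl1 stood at 995 CPM in the first cluster and at 307 CPM in the second. In the first cluster Cxcl1 was 1094, 1345, 889 and 862 CPM in the 4 libraries, against 211, 897, 158 and 128 CPM in the second. Cxcl10 stood at 275 and 54.1 CPM, Ccl2 at 304 and 113 CPM, Icam1 at 51.2 and 19.1 CPM and Cxcl9 at 21.9 and 1.18 CPM in the first and second cluster. For these 5 genes the first cluster was above the second in each library. Cx3cl1 (60.4 and 68.0 CPM) had no common order over the 4 libraries, and Cxcl2 stood at 14.1 and 13.3 CPM. The clusters were found in these cells and differ in depth, and no test was run between them.

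Myeloid-like cells also fell into clusters with different chemokines. Ccl3 stood at 3390 CPM in the cluster led by Ctss, C1qa and Trem2 and by Ccl3 itself (280 cells, 192 of them posterior), at 2050 CPM in a cluster of 28 cells led by Plac8 and Fcnb, and at 296 CPM in the 544 cells led by genes of the class II major histocompatibility complex. Ccl2 was also lowest in the class II cluster but highest in the 28-cell one, with 530, 3186 and 15.2 CPM in the 3 clusters. Cxcl2 did not, with 1999, 1671 and 1692 CPM. Cxcl9 was at 0.500, 0 and 38.3 CPM. In the 28-cell cluster, 258 of the 328 Ccl2 UMIs lay in the 11 cells of the second lane.

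Some cells held markers of a second class, and Ccl3 and Cxcl2 outside myeloid-like cells moved with them. Cells were set apart when they held at least 10 UMIs of the myeloid, endothelial or fibroblast markers while belonging to another class. This took 33 of 2856 folliculostellate-like, 10 of 852 myeloid-like, 74 of 573 endothelial-like and 14 of 330 fibroblast-like cells. The references lost cells as well. Among 12933 hormone cells, 169 passed the limit for fibroblast markers, 8 for myeloid and 1 for endothelial markers. Among 1223 pituicyte-like cells, 4 passed it for myeloid markers. Of the folliculostellate-like cells set apart, 26 passed the limit for myeloid markers. Of the endothelial-like ones, 62 passed it for fibroblast markers and 24 for myeloid markers.
Those cells held 80.0% of the Ccl3 UMIs and 25.9% of the Cxcl2 UMIs of folliculostellate-like cells, but 2.17% of Cxcl1, 2.09% of Cxcl10 and 4.87% of Ccl2 UMIs. Without them the Ccl3 level of folliculostellate-like cells was 0.911 CPM, against 4.35 CPM with them, and Cxcl1 was 695 CPM, against 678 CPM. In endothelial-like cells they held 96.8% of Ccl3, 95.03% of Ccl19, 76.8% of Ccl2 and 67.1% of Cxcl2 UMIs, and the levels without them were 1.51, 2.27, 69.9 and 42.4 CPM. Cx3cl1 and Icam1 of endothelial-like cells were 109 and 86.3 CPM without these cells, against 101 and 83.4 CPM with them. In fibroblast-like cells Ccl3 was 1.15 CPM and Cxcl2 8.06 CPM without them, against 11.3 and 41.9 CPM.

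With those cells left out, Ccl3 against pooled hormone cells had a log2 fold change of 1.14 ± 0.51 in folliculostellate-like cells (edgeR quasi-likelihood adjusted p = 0.0589), 1.88 ± 0.83 in endothelial-like cells (adjusted p = 0.0523) and 1.48 ± 1.33 in fibroblast-like cells (adjusted p = 0.388). The values with all cells had been 3.66 ± 0.71, 6.27 ± 0.68 and 4.89 ± 1.16. Against the mean of the hormone cell types Ccl3 still passed in folliculostellate-like cells (2.16, adjusted p = 0.0446) and endothelial-like cells (2.90, adjusted p = 0.0410), and not in fibroblast-like cells (2.49, adjusted p = 0.286). Cxcl2 stayed called against pooled hormone cells in folliculostellate-like cells (4.33 ± 0.41, adjusted p = 1.36e-08). In myeloid-like cells Ccl3 had 12.21 ± 0.33 without these cells.

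**Figure D5:**
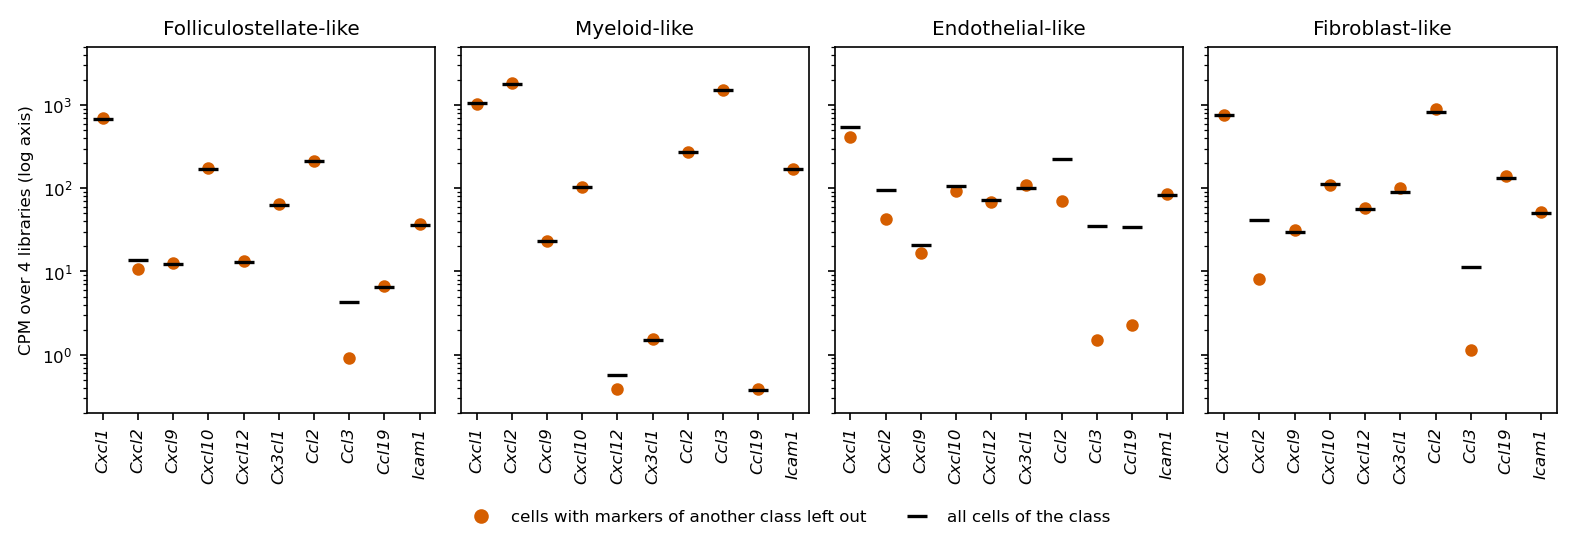
Level of each gene in CPM (log axis) over the 4 libraries in 4 classes, for all cells of the class (black dashes) and with cells that held at least 10 UMIs of myeloid, endothelial or fibroblast markers of another class left out (orange points). The Ccl3 point lies far below its dash in folliculostellate-like (0.911 and 4.35 CPM), endothelial-like (1.51 and 34.9 CPM) and fibroblast-like cells (1.15 and 11.3 CPM), while the Cxcl1 point of folliculostellate-like cells covers its dash.

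Of 27 chemokine genes tested from a list of 35, 18 were higher and 1 lower in folliculostellate-like than in hormone cells. Of all genes tested, 22.8% were called higher and 11.6% lower. The median log2 fold change of the list was 3.73, against 0.09 over all genes. All 9 member chemokines are on the list and among the 18, so this count partly repeats their own result. The same list, members included, was used for the other classes. Outside the members, the highest levels among called chemokines were those of Cxcl14 (lower, -2.63 ± 0.46), the monocyte attractant Ccl7 (3.73 ± 0.59, edgeR quasi-likelihood adjusted p = 7.06e-06) and the membrane-bound Cxcl16 (1.45 ± 0.18). In myeloid-like cells 21 of 27 were higher and 2 lower (median 8.27, against -0.01 over all genes). Ccl4, with 2726 and 1761 CPM in the dissected and whole preparations, and Ccl6 led them. In fibroblast-like cells 19 were higher and 0 lower, among them Ccl11, the eosinophil attractant (11.35 ± 0.65), with 143 and 210 CPM. Pituicyte-like cells had 12 higher and 1 lower, with Cxcl17 at 126 and 123 CPM and a log2 fold change of 10.20 ± 0.24 against hormone cells.

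Of 9 receptor genes tested, 8 were higher and 1 lower in myeloid-like than in hormone cells, with Cx3cr1 (12.50 ± 0.18), the receptor of Cx3cl1, at 607 and 453 CPM in the dissected and whole preparations. In folliculostellate-like cells 4 of 9 were higher, led by Cxcr4 (8.70 ± 0.49, edgeR quasi-likelihood adjusted p = 9.26e-13), the receptor of Cxcl12, at 40.3 and 41.5 CPM, and Ackr4, a scavenger of Ccl19, at 25.4 and 30.7 CPM. Among 12 leukocyte adhesion genes, 3 were higher in folliculostellate-like cells, a share near the 22.8% of all genes: the member Icam1, Vcam1 (6.23 ± 0.17) and Glycam1 (6.50 ± 0.77). Of the 12, 10 were higher in endothelial-like cells, where Icam2 stood at 411 and 374 CPM.

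Genes of the NF-kB, interferon and immediate early lists were higher in folliculostellate-like than in hormone cells as well. Of 23 NF-kB genes and inhibitors 17 were higher and 1 lower (median 2.47), led by Zfp36 (3.1 ± 0.09), Nfkbia (4.10 ± 0.18, edgeR quasi-likelihood adjusted p = 1.05e-15) and Ier3 (5.06 ± 0.17). Of 19 interferon response genes 13 were higher and 0 lower (median 3.33), led by Irf1 (3.33 ± 0.11), Isg15 and Mx2. Of 18 inflammatory cytokine and receptor genes 13 were higher and 1 lower, led by Il33 (9.82 ± 0.16), an alarmin of barrier and glial cells, at 338 and 353 CPM. Of 16 immediate early genes 15 were higher and 0 lower (median 2.55), with Fos at 10221 and 10354 CPM, Junb and Btg2. The part of dispersal in these levels was not tested. Against myeloid-like cells, folliculostellate-like cells had 0 NF-kB genes higher and 17 lower, and 13 immediate early genes higher and 1 lower.

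Across 22 sums of 11 classes and 2 preparations, the genes whose log2(CPM + 1) followed each member most closely among 9873 genes were listed. For Cxcl1 they were AABR07051947.1, Zeb2 and Rela (Pearson r from 0.98 to 0.99), for Cxcl2 Tyrobp, Il1b and Bcl2a1, and for Ccl3 Themis2, Bcl2a1 and Il1b. For Cxcl12 they were Notch3, Mn1 and Nid1, for Ccl19 Cspg4, Notch3 and Mir145, and for Cx3cl1 Sema6d, Lrp5 and Agrn. Cxcl10 was followed by Zfp36l1, Ier5 and Ccl2, Ccl2 by Ifitm1, AABR07051947.1 and Cmklr1, Cxcl9 by AABR07051947.1, Zeb2 and Cmklr1, and Icam1 by AABR07019083.1, Tnfaip8 and Ggta1. The points share libraries and large differences between classes.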

How the data were processed

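Libraries were made with a droplet 3' kit and aligned and counted with Cell Ranger 3.1, per the submitters' processing notes, and the authors deposited raw UMI counts per gene and cell barcode. The genome build and annotation behind the counts are not given in the sources used here. The 10 members and the gene lists were chosen with earlier results of these data known. Of 32455 barcodes, 20381 had 1000 UMIs or more, 500 genes or more and a mitochondrial share of no more than 20%, and were kept; 604 of them with a Scrublet score over 0.25 were removed as doublets. The 4 libraries held 61981865 to 72754998 UMIs. Cells were clustered with scanpy 1.11.5 without the listed genes and named from fixed markers. UMIs were summed per class and preparation (22 sums, 10 residual degrees of freedom). The dissected preparation's folliculostellate-like and hormone cells came from the anterior library, its pituicyte-like and melanotroph-like cells from the posterior library, and other classes from both. Sums were tested with edgeR 4.0.16 (TMM, quasi-likelihood, Benjamini-Hochberg adjustment), with class and preparation as terms; all 10 members passed the low-count filter. DESeq2 1.42.0 was an alternative, and the test was checked on simulated counts. The hormone cell reference was the mean of 5 hormone cell types, or their pooled sum where stated. Shares of cells used counts thinned to 2000 UMIs per cell, with cells below 2000 UMIs left out, unless given as unthinned. Poisson and binomial intervals (95%, exact) cover counting error only. Genes were named by a rule: the members, the 3 called genes of each list with the highest level, and the genes most like each member by correlation. Splits of classes and clusters by marker UMIs, and the removal of cells with markers of another class, were added after the data were seen.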

Additional observations from a re-analysis of the deposited data

Results flagged for a closer look

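Ccl3 was also found outside the compared classes, in T and NK lymphocyte-like cells, at 349 CPM over all libraries (130 UMIs in 80 cells), a class that enters no comparison. It stood at 151, 312, 436 and 373 CPM in the anterior, posterior, first and second whole-gland libraries.

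Schwann-like cells, which also enter no comparison, had Cxcl1 at 289 CPM (121 UMIs in 84 cells) and Ccl2 at 451 CPM (189 UMIs). Of the Ccl2 UMIs, 184 were in the 64 posterior cells. In hormone cells over all libraries Cxcl1 stood at 2.73 CPM, Ccl2 at 0.768 CPM and Ccl3 at 0.408 CPM.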

How the results depend on the processing

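Of 910 fold changes recomputed under other settings, 861 kept their direction and their side of the threshold, 20 lost and 18 gained a call, and 11 changed sign. The number of members called ranged over the settings from 9 to 10 in folliculostellate-like cells against hormone cells, 7 to 9 in myeloid-like, 10 to 10 in endothelial-like, 9 to 10 in fibroblast-like and 2 to 8 in pituicyte-like cells, the 2 without the posterior library. It ranged from 6 to 9 for folliculostellate-like against pituicyte-like cells and from 5 to 7 against myeloid-like cells. Leaving out 1 library at a time, pituicyte-like against hormone cells ranged from -2.13 to 0.68 for Cxcl1, from -2.99 to 6.36 for Cxcl2, from -2.01 to 3.45 for Cxcl9, from -1.88 to 2.82 for Cxcl12 and from -3.21 to 4.84 for Ccl3. Folliculostellate-like against pituicyte-like cells ranged from -0.72 to 8.01 for Ccl3 and from -0.59 to 2.26 for Ccl19, and against myeloid-like cells from -0.049 to 1.54 for Cxcl10. The low ends in pituicyte-like cells come without the posterior library, where 104 cells of the whole preparation remain. With hormone cells pooled, Cxcl9 there was -0.76. Folliculostellate-like against pituicyte-like cells changed sign for Ccl3 with doublets kept (-0.59) and without cells carrying markers of another class (-2.04), and for Ccl3 and Ccl19, and Cxcl10 against myeloid-like cells, without the anterior library. The causes were not tested. Cxcl1 against myeloid-like cells lost its call without the low-count filter (-0.83), with doublets kept (-0.97) and without cells carrying markers of another class (-0.96). Ccl3 against hormone cells lost its call in folliculostellate-like cells without the anterior library (3.97, adjusted p = 0.0757, edgeR). Of 570 levels, 128 moved beyond their counting interval, 87 of them when the cell richest in the gene was left out. Preparation was a term of the fit, and without it the numbers of members called were the same in all 7 comparisons. The classes of a preparation came from the same pooled glands, and the preparation term took up that pairing. It could not take up differences between the anterior and posterior libraries where classes of the dissected preparation came from different libraries.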
